A study of Mus musculus with 6 samples.

Results

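The cytochrome P450 genes of the lung were examined in 6 whole left lungs of mice, as the 59 protein-coding genes among the 23194 of the deposited table whose symbol is Cyp followed by a family number, a subfamily letter and a gene number. They fell into 14 families. All lungs came from adult wild type mice of the inbred strain C57BL/6. Naive lungs came from 3 control mice, whose labels mention no operation. Injured lungs came from 3 mice with warm ischemia-reperfusion injury, produced by ligation of the artery to the left lung lasting 4 h and 24 h of reperfusion. The naive group is no sham control, so operation and ischemia cannot be told apart. The p-values set the difference between groups against the spread between these lungs. The symbol rule left out Cyp51, Cyp2ab1, the P450 enzymes Tbxas1 and Ptgis, and the 3 genes the table lists as pseudogenes.

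Cytochrome P450 enzymes are haem proteins that insert an oxygen atom into fat-soluble molecules, mostly in the endoplasmic reticulum and for some members in mitochondria. Those of families 1 to 3 mostly oxidise drugs, smoke constituents and other foreign compounds, and those of family 4 mainly oxidise fatty acids and eicosanoids. Most of the remaining families make or clear sterols, bile acids, steroid hormones, vitamin D and retinoic acid. In the mouse lung, club cells of the small airways are a known site of foreign-compound oxidation, whereas Cyp1a1 can be induced in several lung cell types through the aryl hydrocarbon receptor.

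The promoters of 4 members are shown because these genes carry the results: Cyp1a1 for the fall in injured lungs, Cyp26b1 for the largest positive difference, Cyp4f18 for a difference close to the threshold, and Cyp2f2 for the highest level. They are RefSeq sequences of build GRCm38.p6, from 250 bases before to 50 after the gene's start, matched by symbol for 46 of the 59 members. Cyp7b1 was not among them. Capitals mark GCGTG, the core of the site bound by the aryl hydrocarbon receptor, and TATAAA, the TATA box, on either strand. The letters CACGTG, the E-box of clock proteins, were searched as well.
Cyp1a1 (chr9:57697363-57697662, plus strand): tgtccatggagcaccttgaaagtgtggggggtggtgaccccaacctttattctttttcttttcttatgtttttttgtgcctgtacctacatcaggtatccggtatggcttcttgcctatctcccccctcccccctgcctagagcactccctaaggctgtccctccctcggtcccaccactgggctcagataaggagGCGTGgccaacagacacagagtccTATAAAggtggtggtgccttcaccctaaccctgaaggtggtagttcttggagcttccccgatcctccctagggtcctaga
Cyp26b1 (chr6:84593761-84594060, minus strand): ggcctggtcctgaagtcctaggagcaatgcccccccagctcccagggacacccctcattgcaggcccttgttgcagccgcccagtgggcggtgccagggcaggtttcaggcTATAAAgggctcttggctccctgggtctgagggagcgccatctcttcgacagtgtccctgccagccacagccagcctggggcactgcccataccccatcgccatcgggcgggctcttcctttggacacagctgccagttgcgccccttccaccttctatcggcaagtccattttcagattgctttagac
Cyp4f18 (chr8:72009577-72009876, minus strand): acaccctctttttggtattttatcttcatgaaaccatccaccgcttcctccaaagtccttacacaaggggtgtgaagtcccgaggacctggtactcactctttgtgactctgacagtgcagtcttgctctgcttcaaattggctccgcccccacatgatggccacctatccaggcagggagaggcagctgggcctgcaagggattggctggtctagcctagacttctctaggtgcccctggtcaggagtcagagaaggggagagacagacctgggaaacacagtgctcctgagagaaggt
Cyp2f2 (chr7:27119705-27120004, plus strand): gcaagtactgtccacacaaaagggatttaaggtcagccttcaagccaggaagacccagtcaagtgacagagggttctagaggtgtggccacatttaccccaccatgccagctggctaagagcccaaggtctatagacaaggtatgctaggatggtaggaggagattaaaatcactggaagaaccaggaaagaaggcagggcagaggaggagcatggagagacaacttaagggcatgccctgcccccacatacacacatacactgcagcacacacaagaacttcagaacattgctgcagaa
The Cyp1a1 window held 1 GCGTG, beginning 54 bases before the start, and 1 TATAAA, beginning 30 bases before it. In the Cyp26b1 window TATAAA began 139 bases before the RefSeq start, which lies 98 bases downstream of the gene's start as the table gives it. For Cyp2f2 the RefSeq start lies 46 bases downstream of the table's, and for Cyp1a1 and Cyp4f18 both are the same. Neither of the other windows held any of the 3 motifs. GCGTG occurred in 32.4% of 32851 promoters of this length and in 11 of the 46 members, TATAAA in 13.6% and in 18 of the 46, and CACGTG in 7.15% and in 2 of the 46. These are matches of letters and not shown sites. The sites that mediate induction of Cyp1a1 are known to lie mostly farther upstream than this window.

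Total counts ran from 18913487 to 34986276 per library. Sftpc, the surfactant gene that marks alveolar type 2 cells, was at 13755 CPM (counts per 1000000, TMM-scaled) or more in every library. Defining hepatocyte transcripts were near 0: Alb, the albumin gene, lay between 0.10 and 1.16 CPM. Of 10 hepatocyte markers listed, 2 passed the filter and edgeR called 0, while both reached an unadjusted p under 0.05 and DESeq2 called 1 higher. Of 12 neutrophil markers edgeR called 11 higher, and 12 were higher in every injured than in every naive lung. Their summed levels were 64.8 to 103 CPM in naive and 670 to 1432 CPM in injured lungs. Of 9 monocyte and interstitial macrophage markers edgeR called 7 higher, 9 had a positive log2 fold change and 8 did not overlap. Over all genes tested 2.16% were called higher, and 12.3% were higher in every injured than in every naive lung. Of 10 endothelial markers edgeR and DESeq2 called 0 and 1 reached an unadjusted p under 0.05, with Cdh5, the endothelial cadherin, at 1276, 1351 and 1595 CPM in naive and 1248, 1223 and 1123 CPM in injured replicates 1 to 3. In these bulk samples, fewer cells of a type and less RNA per cell cannot be told apart.

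Naive replicate 3 stood apart from the other naive lungs. Its summed P450 level was 1088 FPKM (deposited counts scaled to gene length and library total) against 1604 and 1537 FPKM in naive replicates 1 and 2. Of the 30 members tested, 18 had their lowest naive CPM there, as did 38.5% of all genes tested. Its clock genes also differed: Dbp, a transcription factor of the circadian output, stood at 23.8 CPM against 116 and 215 CPM, and Arntl, the clock activator BMAL1, at 27.7 CPM against 4.20 and 2.43 CPM. In injured lungs Dbp lay at 28.0, 60.7 and 31.7 CPM and Arntl at 21.1, 15.6 and 20.2 CPM, on the side of naive replicate 3. The part of the clock in the P450 results was not tested.

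A few P450 genes made up most of the family's transcripts. Cyp2f2, Cyp4b1 and Cyp2b10 together held between 82.3% and 87.0% of the summed FPKM of the 59 members in each library. In mean level over the 6 libraries 3 members exceeded 100 FPKM, 7 lay between 10 and 100 FPKM, 16 between 1 and 10 FPKM, and 33 at or below 1 FPKM. Cyp2f2, the club cell enzyme that activates naphthalene, ranked 39 of 23194 genes by mean FPKM, Cyp4b1 ranked 119 and Cyp2b10 ranked 245.

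**Figure D1:**
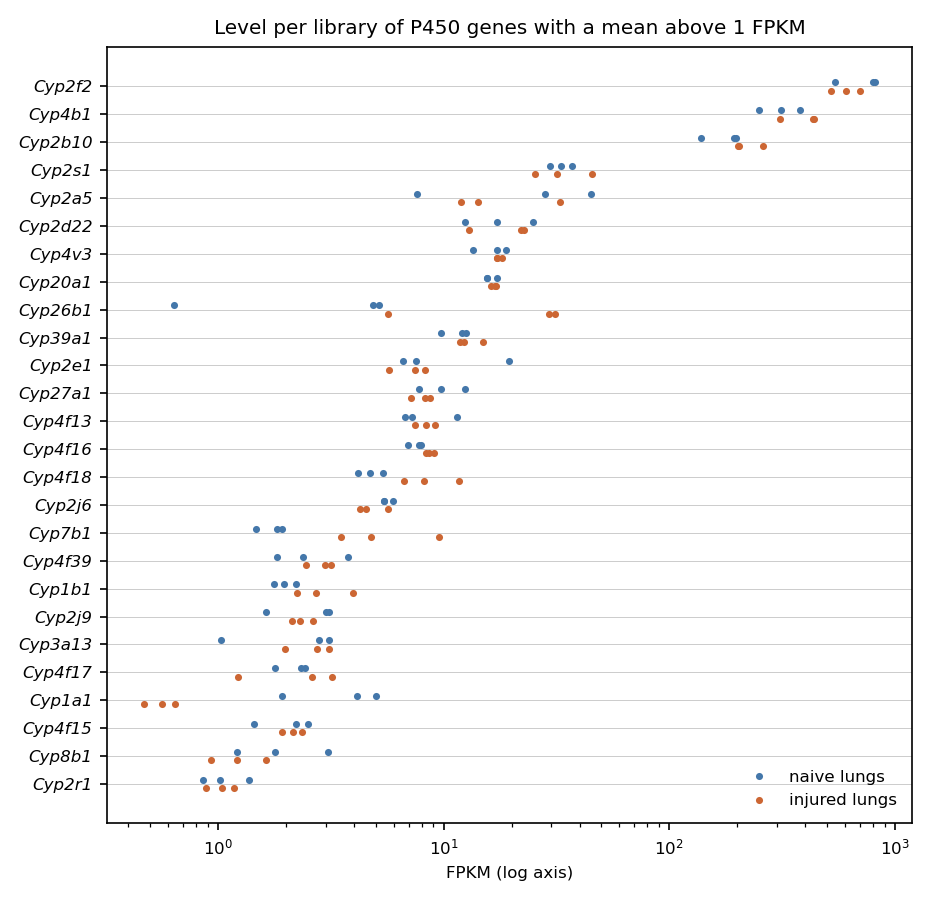
FPKM per library on a log axis for the 26 members with a mean above 1 FPKM, ordered by that mean, with 1 point per lung. Groups overlap for most members. Cyp1a1 is lower in all 3 injured lungs. Cyp1b1, Cyp2b10, Cyp4f16, Cyp4f18, Cyp7b1 and Cyp26b1 are higher in all 3, some of them by a small margin.

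Families 2 and 4 accounted for nearly all of the level. Family 2 held from 62.0% to 73.4% and family 4 from 23.3% to 34.3% of the summed P450 FPKM in a library. Family 26, the retinoic acid hydroxylases, held 0.0424%, 0.318% and 0.473% in naive replicates 1 to 3 and 0.396%, 1.80% and 2.48% in injured replicates 1 to 3. The share of family 2 was higher in every naive than in every injured lung, 69.8%, 73.4% and 68.6% against 62.0%, 65.0% and 64.8%, which is a description with no test. The summed level of all 59 genes overlapped between groups, at 2804 ± 506 CPM (SD, n = 3) in naive and 2896 ± 364 CPM (SD, n = 3) in injured lungs.

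**Figure D2:**
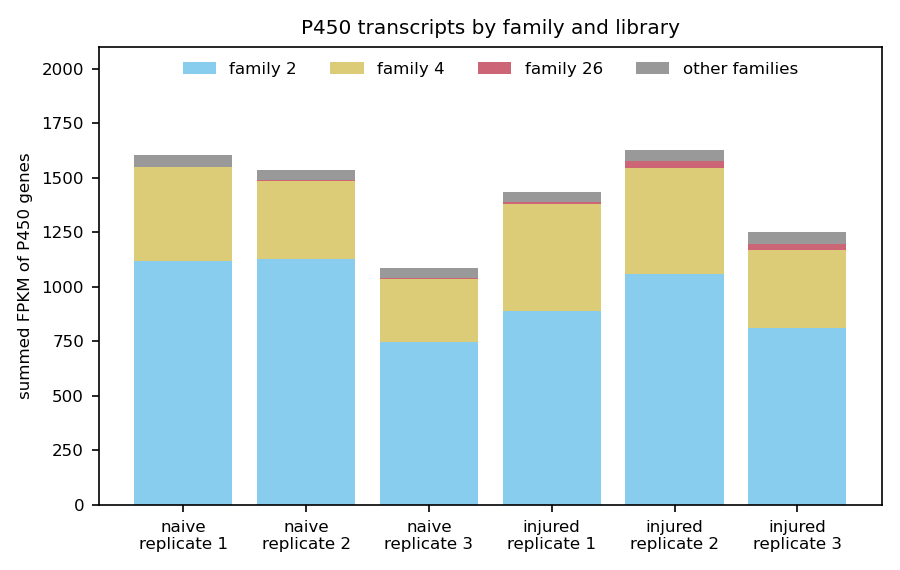
Summed FPKM of the P450 genes by family in each library, with families 2, 4 and 26 and the other families stacked in that order. Naive replicate 3 has the lowest column at 1088 FPKM, and family 26 is a visible band in injured replicates 2 and 3.

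Of the 59 members, 30 passed the filter on low counts and were tested by edgeR's quasi-likelihood test with Benjamini-Hochberg adjustment over all 15486 genes tested. A member that passed only through the group where it is high had to differ, so the counts and medians over tested members are descriptions. At an adjusted p under 0.05, 1 member was called higher and 1 lower. Over all genes tested 3.11% were called, 2.16% higher and 0.956% lower, so 1 call in each direction among 30 is a count too small to set the P450 genes apart. The median log2 fold change of the tested members was 0.056, beside -0.00096 over all genes tested. For 23 of the 30 the estimated change was under 1.5-fold in either direction. In CPM, 6 tested members were higher and 1 was lower in all 3 injured than in all 3 naive lungs, where 12.3% and 10.6% of all genes tested did not overlap in these directions.

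**Figure D3:**
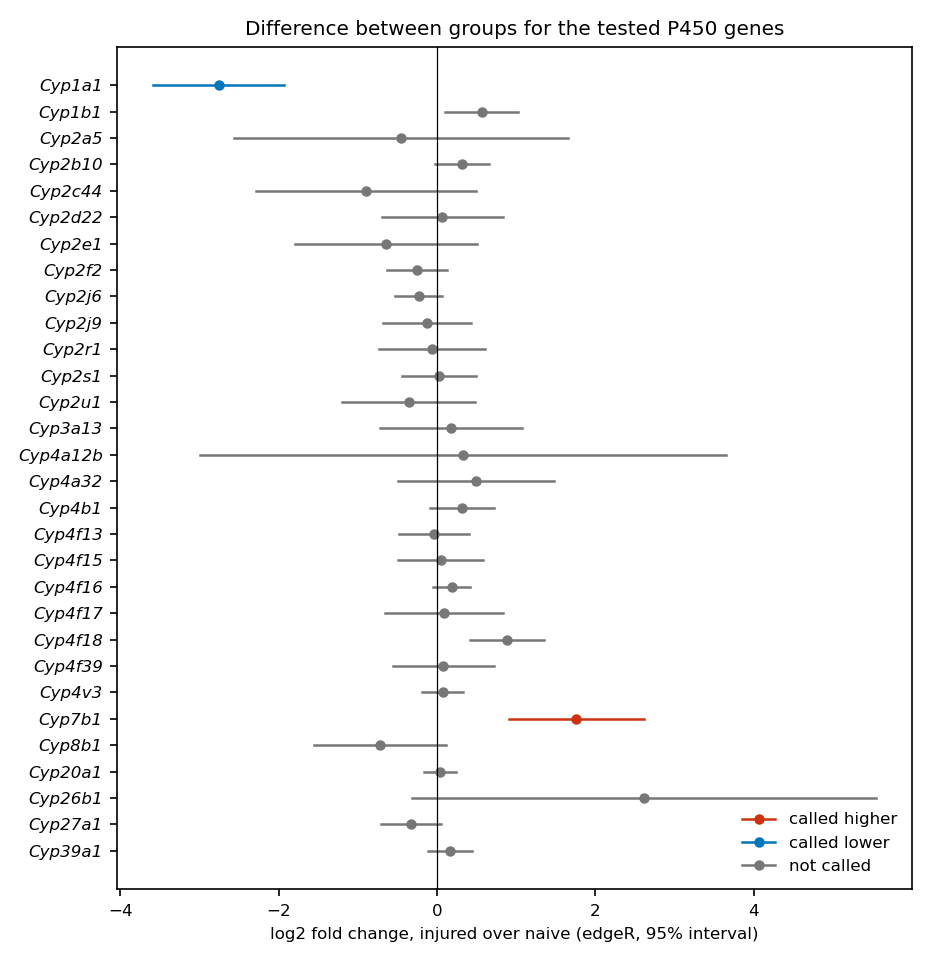
Log2 fold change of injured over naive lungs with its 95% interval from edgeR for the 30 tested members, ordered by family. The interval of Cyp1a1 runs from -3.58 to -1.93 and that of Cyp7b1 from 0.91 to 2.62, while that of Cyp26b1 spans 0, from -0.32 to 5.54.

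Cyp1a1 had the largest fall of the family. It encodes the enzyme that oxidises polycyclic aromatic hydrocarbons and is the classical target gene of the aryl hydrocarbon receptor. Cyp1a1 (ENSMUSG00000032315, mm10, chromosome 9, 57697613 to 57703822) stood at 10.8, 5.02 and 13.4 CPM in naive replicates 1 to 3 and at 1.69, 1.46 and 1.22 CPM in injured replicates 1 to 3. The groups did not overlap, and the 3 injured lungs were close to each other while the naive lungs spread from 5.02 to 13.4 CPM. The mean went from 9.75 ± 4.30 to 1.46 ± 0.232 CPM (SD, n = 3 each), a 6.74-fold fall (edgeR log2 fold change -2.75 ± 0.36 SE, adjusted p = 0.00629). The call held in each of the 14 alternative fits, with log2 fold changes from -3.06 to -2.46 and adjusted p up to 0.0390. In naive replicate 3, whose Dbp and Arntl levels lay near those of injured lungs, Cyp1a1 had its highest level. The part of the clock in the Cyp1a1 fall was not tested.

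**Figure D4:**
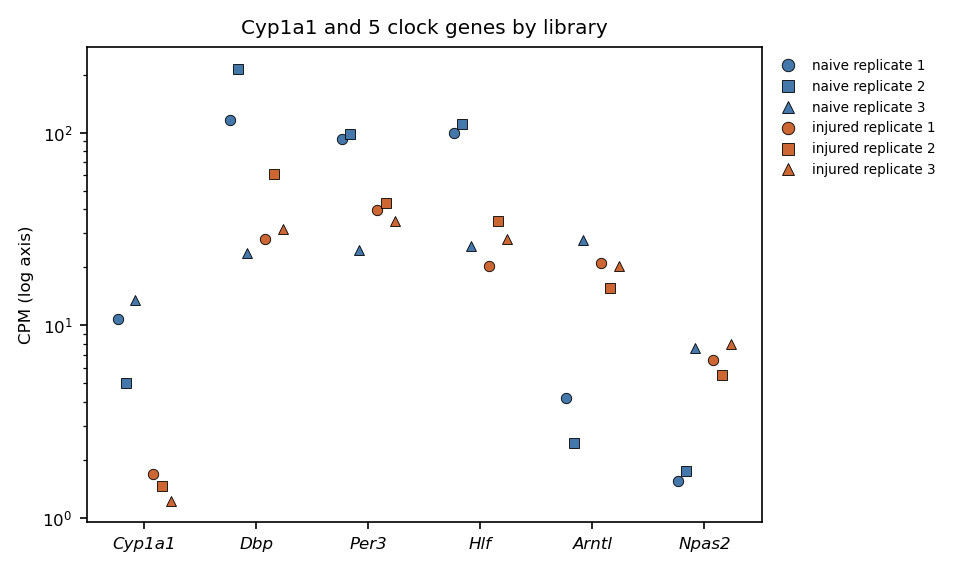
CPM per library on a log axis for Cyp1a1 and 5 clock genes, with circles, squares and triangles for replicates 1 to 3. Naive replicate 3 lies near the injured lungs for Dbp, Per3, Hlf, Arntl and Npas2, while for Cyp1a1 it is the highest point at 13.4 CPM.

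The genes around the aryl hydrocarbon receptor were not called. Ahr, the receptor itself, had 178, 154 and 137 CPM in naive and 149, 176 and 162 CPM in injured replicates 1 to 3 (log2 fold change 0.05 ± 0.11). Of 12 xenobiotic and nuclear receptor genes listed, 10 were tested and edgeR, DESeq2 and limma-voom called 0, with a median log2 fold change of 0.048. Of 6 other target genes of the receptor, 4 were tested and these tools called 0, with a median of 0.087. Tiparp, a feedback inhibitor of the receptor, was at -0.13 ± 0.11, and Nqo1, a quinone reductase, at -0.11 ± 0.26. Aldh3a1, an aldehyde dehydrogenase, was at 0.28 ± 0.18. Ugt1a6b, a glucuronosyltransferase, had 0.639, 0.370 and 0.293 CPM in naive and 0.546, 1.46 and 1.01 CPM in injured replicates 1 to 3 (log2 fold change 1.21 ± 0.49, edgeR adjusted p = 0.252). In each of these lists 1 gene reached an unadjusted p under 0.05.

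The other members of family 1 had different values. Cyp1b1, which oxidises steroids and polycyclic hydrocarbons and is known from stromal cells, stood at 11.3, 10.05 and 9.33 CPM in naive and 11.4, 13.8 and 20.2 CPM in injured replicates 1 to 3. Every injured value lay above every naive value, by a small margin for injured replicate 1, and the test was not passed (log2 fold change 0.57 ± 0.20, edgeR adjusted p = 0.198). Cyp1a2, mainly a liver enzyme, had 2 counts in all naive libraries and 1 in all injured libraries.

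Cyp7b1 was the member called higher. It encodes an enzyme that hydroxylates oxysterols. Cyp7b1 (ENSMUSG00000039519, chromosome 3, 18071950 to 18243338) had 3.16, 4.18 and 4.04 CPM in naive and 7.54, 10.3 and 20.6 CPM in injured replicates 1 to 3. The groups did not overlap, and injured replicate 3 lay well above the other injured lungs. The mean rose from 3.79 ± 0.552 to 12.8 ± 6.88 CPM (SD, n = 3 each), with an edgeR log2 fold change of 1.76 ± 0.37 and an adjusted p = 0.04998. The value lies at the threshold, and the call was lost with DESeq2's size factors (adjusted p = 0.0514), with limma-voom (adjusted p = 0.0971), with no filter on low counts (adjusted p = 0.101), with the 20 most abundant genes left out of the scaling (edgeR adjusted p = 0.05005), without any 1 naive library (adjusted p up to 0.169) and without injured replicate 2 (adjusted p = 0.0704). Without injured replicate 3 the log2 fold change was 1.24 and the call held (edgeR adjusted p = 0.0230).

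The oxysterol genes around Cyp7b1 did not pass the test. Of 8 listed and tested, edgeR and limma-voom called 0 and DESeq2 called 1 higher. The median log2 fold change was 0.097, and 1 gene reached an unadjusted p under 0.05 by edgeR. Ch25h, which makes the oxysterol substrate, had 3.29, 3.17 and 2.78 CPM in naive and 4.12, 5.01 and 10.9 CPM in injured replicates 1 to 3 (log2 fold change 1.12 ± 0.35, edgeR adjusted p = 0.147). Like Cyp7b1 it was highest in injured replicate 3. Marco, a scavenger receptor of alveolar macrophages, also had its highest level there, with 19.5, 19.1 and 14.9 CPM in naive and 41.9, 38.4 and 105 CPM in injured replicates 1 to 3 (edgeR adjusted p = 0.138). Of 9 alveolar macrophage markers edgeR called 1 higher and DESeq2 called 2 higher. The list's median log2 fold change was 0.0009, with 5 markers positive and 4 negative. Its summed level was 993, 1231 and 896 CPM in naive and 1567, 1611 and 1519 CPM in injured replicates 1 to 3. The sum was lowest of the injured lungs in replicate 3, where Cyp7b1 and Marco were highest. The part of macrophages in the Cyp7b1 result was not tested.

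The largest positive difference was that of Cyp26b1, which did not pass the test. It encodes a hydroxylase that degrades retinoic acid. Cyp26b1 (ENSMUSG00000063415, chromosome 6, 84571414 to 84593908) stood at 3.02, 23.2 and 25.0 CPM in naive and 26.7, 138 and 147 CPM in injured replicates 1 to 3. Within each group replicate 1 was several times lower than the others, and injured replicate 1 lay just above the highest naive value. Means were 17.1 ± 12.2 and 104 ± 67.1 CPM (SD, n = 3 each), with a log2 fold change of 2.61 ± 1.09 (edgeR adjusted p = 0.346). The authors' deposited table gives Cyp26b1 a log2 fold change of 0.35 with an adjusted p of 0.228. DESeq2 on the deposited counts gave 2.60 with an adjusted p of 0.125. The fold changes of the authors' deposited table were also nearer 0 for Cyp1a1, at -1.67, and for Cyp7b1, at 1.13. The authors' adjusted p of these genes, 1.90e-12 and 7.79e-06, lay close to those of DESeq2 here, 1.89e-12 and 7.00e-06.

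**Figure D5:**
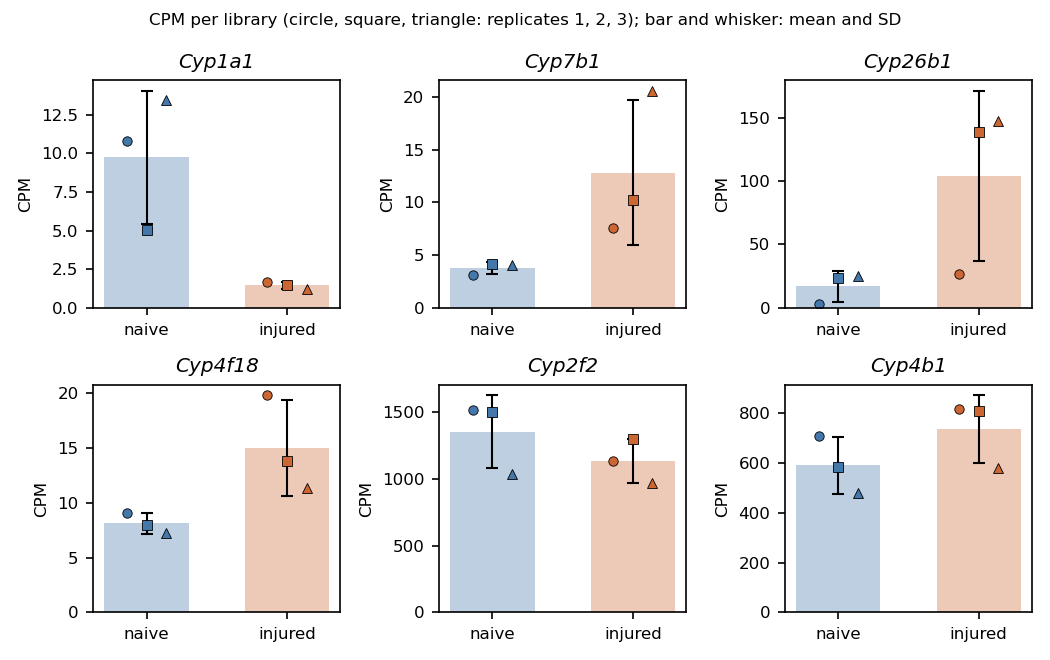
CPM per library of 6 P450 genes, with bars for group means and whiskers for SD (n = 3). Cyp1a1, Cyp7b1, Cyp26b1 and Cyp4f18 do not overlap between groups, while Cyp2f2 and Cyp4b1 do.

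Of the genes that make, carry and sense retinoic acid, 13 of 15 listed were tested. EdgeR and limma-voom called 1 higher and 0 lower, and DESeq2 called 1 higher and 1 lower. Rdh10, the retinol dehydrogenase that starts retinoic acid synthesis, rose from 29.8, 26.1 and 21.8 to 34.2, 43.4 and 45.0 CPM in replicates 1 to 3 (log2 fold change 0.66 ± 0.14, edgeR adjusted p = 0.0414). The median of the list was 0.15. Aldh1a1, a retinal dehydrogenase that is abundant in lung epithelium, had a log2 fold change of -0.62 ± 0.18 (edgeR adjusted p = 0.127, and 0.00977 in the authors' deposited table) and Rarb, a receptor induced by retinoic acid, of 0.22 ± 0.24. The other retinoic acid hydroxylases were nearly silent, with 1 count of Cyp26a1 and 8 counts of Cyp26c1 over the 6 libraries.

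Family 4 held 10 tested members of 16. EdgeR and limma-voom called 0, DESeq2 called 1, and 1 reached an unadjusted p under 0.05 by edgeR. The member closest to the threshold was Cyp4f18, a hydroxylase that inactivates leukotriene B4 and is known from neutrophils. Cyp4f18 (ENSMUSG00000003484, chromosome 8, 71988482 to 72009626) had 9.11, 7.99 and 7.26 CPM in naive and 19.8, 13.8 and 11.3 CPM in injured replicates 1 to 3. All injured lungs lay above all naive lungs (log2 fold change 0.88 ± 0.21, edgeR adjusted p = 0.0555). It was called by DESeq2 (adjusted p = 0.00311), with no filter on low counts (edgeR adjusted p = 0.0101), without injured replicate 3 (edgeR adjusted p = 0.0212) and in the authors' deposited table.

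Neutrophil markers were also higher in injured lungs. Their summed level was 103, 64.8 and 82.0 CPM in naive and 1432, 1183 and 670 CPM in injured replicates 1 to 3. The order of the replicates matched that of Cyp4f18 in injured but not in naive lungs. S100a8, a neutrophil calprotectin subunit, stood at 280, 267 and 133 CPM in injured replicates 1 to 3. Ly6g, a defining neutrophil surface gene, was at 0.0672, 0.106 and 0.293 CPM in naive and 6.25, 6.96 and 2.24 CPM in injured replicates 1 to 3. The part of neutrophils in the Cyp4f18 values was not tested. Exons of Cyp4f18 share 181 bases with Zfp961 on the opposite strand, and the counting strand is not given in the sources used here. Zfp961 had 15.9, 14.6 and 14.04 CPM in naive and 14.6, 13.9 and 12.0 CPM in injured lungs.

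In the list of eicosanoid enzymes and receptors, edgeR called 2 genes of leukotriene handling higher. Among 18 listed eicosanoid genes 17 were tested, 2 were called higher and 0 lower, with a median log2 fold change of 0.31. Limma-voom called 2 higher and DESeq2 called 3 higher of 18. Of the 17, 13 were positive and 4 negative, and 6 were higher in every injured than in every naive lung. By edgeR 9 of the 17 reached an unadjusted p under 0.05, beside 2589 of all 15486 genes tested. Over all genes tested 2.16% were called higher. Alox5ap, which presents arachidonic acid to the leukotriene-forming lipoxygenase, rose from 40.7, 37.6 and 33.7 to 108.4, 98.2 and 78.0 CPM in replicates 1 to 3 (log2 fold change 1.35 ± 0.13, edgeR adjusted p = 0.000892). Ltb4r1, the receptor of leukotriene B4, rose from 2.76, 2.91 and 3.45 to 7.74, 8.15 and 8.65 CPM (log2 fold change 1.42 ± 0.18, edgeR adjusted p = 0.00469). Of the P450 enzymes under other symbols, Tbxas1, thromboxane synthase, had 9.01, 9.94 and 9.57 CPM in naive and 12.8, 13.4 and 14.8 CPM in injured lungs (log2 fold change 0.53 ± 0.13, edgeR adjusted p = 0.0646), and the authors' deposited table gives an adjusted p of 0.0264. DESeq2 called 1 of these 3 enzymes higher, and edgeR and limma-voom called 0. Ptgis, prostacyclin synthase, was at 0.31 ± 0.13 and Cyp51, the sterol demethylase of cholesterol synthesis, at -0.09 ± 0.13, both uncalled.

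Cyp4b1 was the most abundant member of family 4. It encodes a lung-enriched enzyme that oxidises fatty acids and activates furans. It had 708, 585 and 479 CPM in naive and 818, 810 and 578 CPM in injured replicates 1 to 3. The groups overlapped, since injured replicate 3 lay below naive replicates 1 and 2 (log2 fold change 0.32 ± 0.18, 95% interval -0.08 to 0.72, edgeR adjusted p = 0.421). Of the remaining family 4 members in the 20 most abundant, Cyp4v3, a fatty acid hydroxylase, was at 0.07 ± 0.12, Cyp4f16 at 0.19 ± 0.11, Cyp4f13 at -0.04 ± 0.20 and Cyp4f39, an acylceramide-forming enzyme of skin, at 0.08 ± 0.28. The mean levels of Cyp4f13 and Cyp4f16, at 8.39 and 8.12 FPKM, were neighbours in the order and lay within each other's spread. Cyp4a32, Cyp4a12b, Cyp4f15 and Cyp4f17 were tested and uncalled, with log2 fold changes from 0.045 to 0.49.

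Family 2 had 24 members, of which 11 were tested. EdgeR, DESeq2 and limma-voom called 0, and 0 reached an unadjusted p under 0.05. Cyp2f2 had 1517, 1499 and 1036 CPM in naive and 1130, 1299 and 965 CPM in injured replicates 1 to 3. Naive replicate 3 lay between the injured values, so the groups overlapped (log2 fold change -0.26 ± 0.17, 95% interval -0.63 to 0.12, edgeR adjusted p = 0.503). Scgb1a1, the main club cell secretory protein, stood at 28791, 23877 and 16737 CPM in naive and 20493, 24268 and 18914 CPM in injured replicates 1 to 3, and Scgb3a2, another secretoglobin, at 530, 622 and 422 CPM in naive and 317, 410 and 578 CPM in injured lungs. Of 10 club cell markers edgeR called 1 higher, Cldn10, a tight junction protein (log2 fold change 0.72 ± 0.15, edgeR adjusted p = 0.0306), and 0 lower, with a median of -0.0014. DESeq2 called 1 higher and 1 lower of the 9 it tested.

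Cyp2b10, a phenobarbital-inducible enzyme in liver that is constitutive in lung, had 368, 379 and 270 CPM in naive and 386, 493 and 388 CPM in injured replicates 1 to 3. Every injured lung lay above every naive lung, by a small margin for injured replicates 1 and 3, and the test was not passed (log2 fold change 0.32 ± 0.15, 95% interval -0.023 to 0.66, edgeR adjusted p = 0.334). Cyp2s1, an extrahepatic epithelial enzyme, was nearly even (log2 fold change 0.022 ± 0.20, 95% interval -0.45 to 0.49). Cyp2d22 was at 0.067 ± 0.31, Cyp2j6, an arachidonic acid epoxygenase of a family also found outside the liver, at -0.23 ± 0.13 and Cyp2j9 at -0.13 ± 0.25. Cyp2c44, Cyp2r1 and Cyp2u1, the remaining tested members, lay between -0.89 and -0.063.

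Cyp2a5 and Cyp2e1 varied widely within the naive group. Cyp2a5, the nicotine and coumarin hydroxylase of the airway and olfactory mucosa, stood at 56.5, 91.0 and 15.7 CPM in naive and 24.0, 28.4 and 66.1 CPM in injured replicates 1 to 3 (log2 fold change -0.45 ± 0.79). Its highest and lowest values were both in naive lungs. Scgb3a1, a secretoglobin of larger airways, also varied within groups, with 56.3, 215 and 105 CPM in naive and 45.0, 13.3 and 423 CPM in injured lungs. Of the 10 club cell markers, Scgb3a1 among them, 5 had a positive and 5 a negative log2 fold change. Cyp2e1, the ethanol-oxidising enzyme, had 12.0, 35.6 and 14.1 CPM in naive and 10.4, 13.6 and 15.1 CPM in injured replicates 1 to 3, so that naive replicate 2 stood above the 5 others (log2 fold change -0.64 ± 0.46). Adipoq, the fat cell hormone adiponectin, was also highest in naive replicate 2, with 1.31, 13.6 and 6.12 CPM in naive and 1.14, 0.443 and 6.54 CPM in injured replicates 1 to 3. Of 8 heart muscle and fat markers listed, 7 were tested and edgeR called 0. All 7 log2 fold changes were negative, with a median of -0.72. The part of airway or fat tissue in these values was not tested.

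Neighbouring P450 genes had very different levels. The cluster on chromosome 7 (mm10, 25802475 to 27158668) held 11 members of family 2, of which Cyp2s1, Cyp2b10, Cyp2a5 and Cyp2f2 exceeded 1 FPKM and the other 7 lay under 0.3 FPKM. In the cluster on chromosome 4 (115106323 to 115647709), Cyp4b1 at a mean of 353 FPKM lay beside 5 members at or below 0.898 FPKM. The cluster on chromosome 17 (32468462 to 32947402) held 8 members of subfamily 4f, 5 of them above 1 FPKM. The 3 members in the family 2 cluster on chromosome 19 (39269405 to 40187333) were at or below 0.00824 FPKM.

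Shared sequence limits the counts of a few members. Among stretches of 100 bases in GENCODE M21 transcripts, 36.2% of those of Cyp4a12b also occurred in Cyp4a12a, 18.2% of those of Cyp4a32 in other genes, and 12.1% of those of Cyp2a5 in Cyp2a4 and its relatives, so the counts of these genes are uncertain one against the other. For Cyp2f2, Cyp2b10, Cyp7b1, Cyp26b1 and Cyp4f18 no stretch was shared, and for Cyp1a1 1.41% was shared with Cyp1a2. For Cyp4b1 3.4% was shared, mostly with Cyp4b1-ps1 and Cyp4b1-ps2, and for Cyp4v3 5.77% with Gm45753. Exons of Cyp4v3 share 313 bases with Gm45753, a protein-coding gene on the same strand. Exons of Cyp2f2 share 274 bases with the antisense gene Gm15883, which had 26 to 80 counts per library.

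The sterol-metabolising members of families 7, 8, 27 and 39 other than Cyp7b1 were uncalled. Cyp39a1, an oxysterol hydroxylase, was at 0.17 ± 0.12. Cyp27a1, the mitochondrial sterol hydroxylase of macrophages and liver, had 23.3, 14.8 and 18.8 CPM in naive and 16.4, 15.6 and 13.5 CPM in injured replicates 1 to 3 (log2 fold change -0.33 ± 0.17, edgeR adjusted p = 0.374). Naive replicate 2 lay within the injured range. Cyp8b1, known as the bile acid hydroxylase of liver, had 2.35, 3.49 and 6.12 CPM in naive and 3.18, 2.35 and 1.81 CPM in injured lungs (log2 fold change -0.72 ± 0.37, edgeR adjusted p = 0.379). Cyp20a1, a member without a known substrate, was among the steadiest, from 34.6 to 38.1 CPM in all 6 lungs (log2 fold change 0.037 ± 0.089). Cyp3a13, of the drug-metabolising family 3, was at 0.18 ± 0.39.

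The remaining 29 members were removed by the filter, with 1 to 62 counts summed over the 6 libraries, while the least counted tested member, Cyp4a12b, had 103. The most counted of those removed were Cyp2t4 with 45 naive and 17 injured counts, Cyp2b19 with 25 and 20, and Cyp46a1, the brain cholesterol hydroxylase, with 25 and 19. Of the 59 members 24 had fewer than 20 counts in all. Enzymes known from the liver were among them, with 1 count of Cyp3a11 and 2 counts of Cyp2c29 in total. Steroid hormone synthesis genes were likewise sparse, with 32 counts of Cyp11a1, 7 of Cyp17a1 and 1 of Cyp21a1. In the naive group 4 members and in the injured group 6 had no count, which allows up to 0.0362 and 0.0452 CPM at 3 counts over a group's libraries, for counting error only.

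The electron donors of P450 enzymes were not called. Por, the reductase that feeds electrons to all microsomal members, had 387, 478 and 342 CPM in naive and 322, 383 and 325 CPM in injured replicates 1 to 3 (log2 fold change -0.23 ± 0.13, edgeR adjusted p = 0.440). Of 9 redox partners edgeR, DESeq2 and limma-voom called 0, and 2 reached an unadjusted p under 0.05. Among 33 other drug-metabolising enzymes 31 were tested, with a median of -0.033. EdgeR and limma-voom called 0 higher and 1 lower, and DESeq2 called 1 higher and 2 lower. Ces2e, a carboxylesterase, fell from 3.26, 6.08 and 5.56 to 0.893, 1.64 and 1.52 CPM in replicates 1 to 3 (log2 fold change -1.86 ± 0.33, edgeR adjusted p = 0.0177). Of 22 cholesterol synthesis genes the 3 tools called 0 and 1 reached an unadjusted p under 0.05. Of 18 clock genes edgeR and limma-voom called 0, DESeq2 called 4 lower, and 4 reached an unadjusted p under 0.05, with a median of -0.54.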

How the data were processed

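RNA of 6 whole left lungs was sequenced, kept in RNAlater before extraction and made into NEBNext Ultra II libraries, per the labels' protocols. Per the file headers, the deposited table holds read counts, normalized counts as the signal, FPKM, and the authors' own log2 fold changes, each with a p-value and its adjusted value. Per the submitters' processing notes build mm10 was used with HTSeq, STAR, STAR-Fusion, edgeR and DESeq2. For settings and counting strand the sources used here give nothing. Deposited FPKM values equalled counts over length and table total. Deposited counts were filtered by edgeR's filterByExpr, scaled by TMM and compared by edgeR's robust quasi-likelihood test with group as the only term (edgeR 4.0.16, limma 3.58.1, DESeq2 1.42.0, R 4.3.3), two-sided, adjusted over 15486 genes. An adjusted p under 0.05 was a call. CPM uses TMM-scaled library sizes.

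Members, lists and tests were chosen with earlier results of these data known. Members were named when called, among the 20 most abundant by mean FPKM, the most abundant tested of a family, among the 5 largest uncalled changes at 1 CPM or more, or among the 3 most counted of those removed. Of the lists given here, called members were named, up to 3 a direction, except in the neutrophil, monocyte and alveolar macrophage lists. Other members of the lists, Cyp1a2, Cyp26a1, Cyp26c1, Cyp3a11, Cyp2c29 and the steroid hormone genes were chosen after values were seen. On simulated data with 200 changed genes, 15329 genes were tested. Of 99 given a log2 fold change of 1, edgeR called 81, of 100 given 2 it called 96, and 15 of its 192 calls were false. Alternatives were other scalings, filters and tools, a replicate block and leaving out each library.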

Additional observations from a re-analysis of the deposited data

How the results depend on the processing

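Cyp1a1 kept its direction and call in all 14 alternative fits. The number of P450 members called higher, 1 with all libraries, was 0 with DESeq2's size factors, with limma-voom and with the 20 most abundant genes left out of the scaling, 2 by DESeq2 and 3 with the replicate block, and ran from 0 to 2 with 1 library left out. The replicate block added Cyp4f18 and Cyp26b1 (adjusted p = 4.95e-05). Lungs of the same number share only that number: their deviations from the group means correlated at 0.077, -0.085 and 0.15, and not every lung correlated best with its own number. Leaving out 1 library moved the median of the tested members between -0.14 (without naive replicate 3) and 0.10, the count of all genes called higher between 145 and 333 and of those called lower between 48 and 146. All genes called lower numbered 269 with no filter and 398 by DESeq2, which called 578 higher. The cause of these moves was not tested. The sign reversed for uncalled members only. Cyp2s1 reversed with limma-voom (-0.014) and the replicate block (-0.015). With 1 library left out, log2 fold changes ran from -0.23 to 0.20 for Cyp2s1, -0.14 to 0.35 for Cyp2d22, -1.04 to 0.13 for Cyp2a5, -0.38 to 0.018 for Cyp2j9, -0.19 to 0.45 for Cyp3a13, -0.19 to 0.22 for Cyp4f13, -0.12 to 0.43 for Cyp4f39 and -0.051 to 0.17 for Cyp4v3. With 3 lungs a group, changes of 2-fold or more were not all detectable. On simulated data edgeR called 81 of 99 genes given a log2 fold change of 1 and 96 of 100 given 2. Smaller changes were not simulated. Members under about 10 counts a library were not tested.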
